A study of Mus musculus with 16 samples.

Results

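B cells were defined among live CD45+ cells sorted from mouse tumors as barcodes with at least 2 UMIs of Cd79a, at least 1 UMI of Cd79b or Ms4a1 and no UMI of Cd3d, Cd3e or Cd3g. A UMI (unique molecular identifier) marks 1 captured RNA molecule. The gate held 146 of 16350 kept barcodes, 143 from Panc02-SIY tumors and 3 from MC38 tumors. The samples belong to a study of dendritic cell migration and the response of tumors to radiation. C57BL/6J mice of 6 to 8 weeks carried subcutaneous tumors, either MC38, a colon adenocarcinoma line, or Panc02-SIY, a pancreatic adenocarcinoma line made to express the model peptide SIY. In each line 4 libraries came from tumors left untreated and 4 from tumors given a single 12 Gy dose and taken 24 h later. Each tumor line is 1 transplanted line, the sort kept all CD45+ leukocytes, and no label ties a library to a named animal. The series text gives 4 samples per group and the study's methods give 3 animals, so a p-value here measures the spread between libraries.

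B cells recognise antigen through a surface immunoglobulin that signals through the paired chains Cd79a and Cd79b. Naive B cells carry IgM and IgD with a kappa or a lambda light chain, and after activation they can divide, switch class and become plasma cells that secrete antibody. Lymphocytes are known as radiosensitive cells, and p53 target genes such as Cdkn1a are a standard readout of DNA damage.

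The gate can be checked only against genes it did not use, since every Cd79a, Cd79b and Ms4a1 value was chosen by it. Cd79a, at chr7:24897381-24902197 of GRCm38, had a median of 9 UMIs per B cell with a range of 2 to 30. Cd79b, at chr11:106311341-106314762, had a median of 4 UMIs, and Ms4a1 (CD20), at chr19:11249675-11266241, also had a median of 4. Ebf1 and Pax5, transcription factors that define the lineage, were found in 96.6% and 85.6% of the 146 B cells. In T cells (2 or more Cd3 UMIs and no Cd79a) of the 7 Panc02-SIY libraries with 5 or more B cells, the shares were 0.258% for Ebf1 and 0.0807% for Pax5. All 25 genes of a B cell identity list were detected in the B cells. Just inside the gate, 2 B cells had exactly 2 Cd79a UMIs and a median of 12 identity genes. Just outside it, 8 barcodes with 1 Cd79a UMI had a median of 13 identity genes, and 2 barcodes lacked both Cd79b and Ms4a1. A further 27 barcodes met the B cell limits but held a Cd3 UMI, and their median depth of 6963 UMIs was above the 3464 UMIs of the B cells.

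Genes with a large fold between B cells and other barcodes of the same Panc02-SIY libraries included lineage genes, which is a description because the gate was set on the same cells. CPM is a gene's UMIs scaled to a fixed total over the summed B cells of a library. Among genes above 50 CPM, the switched heavy chain Ighg1 had a larger fold (8387 against 0.339 CPM) than the lineage genes named here. Its value comes from the plasma gene cells described further on. Pax5 averaged 610 ± 195 CPM (SD, n = 7 libraries) in B cells and 1.14 CPM in other barcodes. Ebf1, a factor that specifies the lineage, averaged 1688 ± 588 CPM against 4.39 CPM. Vpreb3, a surrogate light chain family member, averaged 239 ± 141 CPM against 0.296 CPM. Cd22, an inhibitory coreceptor of the antigen receptor, averaged 271 ± 132 CPM against 3.48 CPM. The promoters of 3 of these genes are shown because each holds a short motif bound by factor families active in B cells. Capitals mark the motif, found on either strand, and each stretch runs from 150 bases before to 50 bases after the RefSeq gene start (GRCm38.p6; Cd79a chr7:24897347-24897546, plus strand; Vpreb3 chr10:75948150-75948349, plus strand; Cd22 chr7:30878979-30879178, minus strand).
Cd79a: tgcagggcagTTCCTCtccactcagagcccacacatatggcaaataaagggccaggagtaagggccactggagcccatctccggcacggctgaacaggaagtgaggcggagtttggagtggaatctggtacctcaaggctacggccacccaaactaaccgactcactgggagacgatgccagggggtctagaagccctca
Vpreb3: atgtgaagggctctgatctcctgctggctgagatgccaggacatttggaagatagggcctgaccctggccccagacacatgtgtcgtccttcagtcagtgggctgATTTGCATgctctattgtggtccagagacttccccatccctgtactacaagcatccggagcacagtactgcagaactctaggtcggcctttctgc
Cd22: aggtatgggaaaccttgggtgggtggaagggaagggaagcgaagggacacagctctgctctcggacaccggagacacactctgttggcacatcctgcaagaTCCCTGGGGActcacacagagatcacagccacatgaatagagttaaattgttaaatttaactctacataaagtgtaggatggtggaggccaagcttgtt
Cd79a holds the ETS core GAGGAA, Vpreb3 the octamer ATGCAAAT and Cd22 an EBF palindrome (TCCC and GGGA around any 2 bases). Over 32851 RefSeq promoter windows of 300 bases, 28.3% hold the ETS core, 1.74% the octamer and 0.904% the palindrome. Of the 30 B cell genes with the largest fold, 16 matched RefSeq promoters, 21 in all. Of these 16 genes 7, 2 and 1 held the motifs, a count per gene where the shares above are per window. Cd22 was not among the 30. The matches describe letters only.

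Markers of other cell types differed from list to list in B cells, as the plot of marker lists shows. The T cell list includes Cd3d, Cd3e and Cd3g, which the gate set to 0. Its other 11 genes summed to between 25.4 and 112 CPM in B cells of the 8 Panc02-SIY libraries, with Cd4 and Icos at 0, and to between 2633 and 4647 CPM in other barcodes of 7 of these libraries. Its most abundant gene in B cells was Lck, with 13 UMIs in all. The neutrophil list summed to 32 UMIs in B cells, led by S100a9 with 8, and the dendritic cell list to 21 UMIs, led by Itgax with 8. The NK list summed to 50 UMIs, led by Gzma with 20. The macrophage list held 721 UMIs in 70 B cells, all 12 genes detected and Apoe (271 UMIs) the most abundant. Of these, 451 UMIs lay in the 3 MC38 B cells, where 1 library of 1 cell stood at 14294 CPM, and 270 lay in the 143 Panc02-SIY B cells, with 149 of Apoe. In the 8 Panc02-SIY libraries the list stood between 112 and 2162 CPM in B cells, and between 1401 and 6286 CPM in other barcodes. Of the 146 B cells, 33 held 3 or more UMIs of macrophage, neutrophil or NK markers. The monocyte and plasmacytoid lists were led by Ly6c2, with 706 UMIs, of which 666 lay in 4 plasma gene cells described further on. The monocyte list stood between 527 and 4873 CPM in B cells and between 1071 and 2541 CPM in other barcodes, and the plasmacytoid list between 515 and 4519 CPM and between 449 and 862 CPM. Neither list was therefore lower throughout in B cells. The tumor and stroma list, led by Pecam1 with 131 UMIs, stood between 200 and 536 CPM in B cells and between 73.3 and 446 CPM in other barcodes. The part of other cells' RNA in these values was not tested. The mast cell and basophil list was led by Cpa3 with 4, and the erythroid and platelet list by Hbb-bt with 4.

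**Figure D1:**
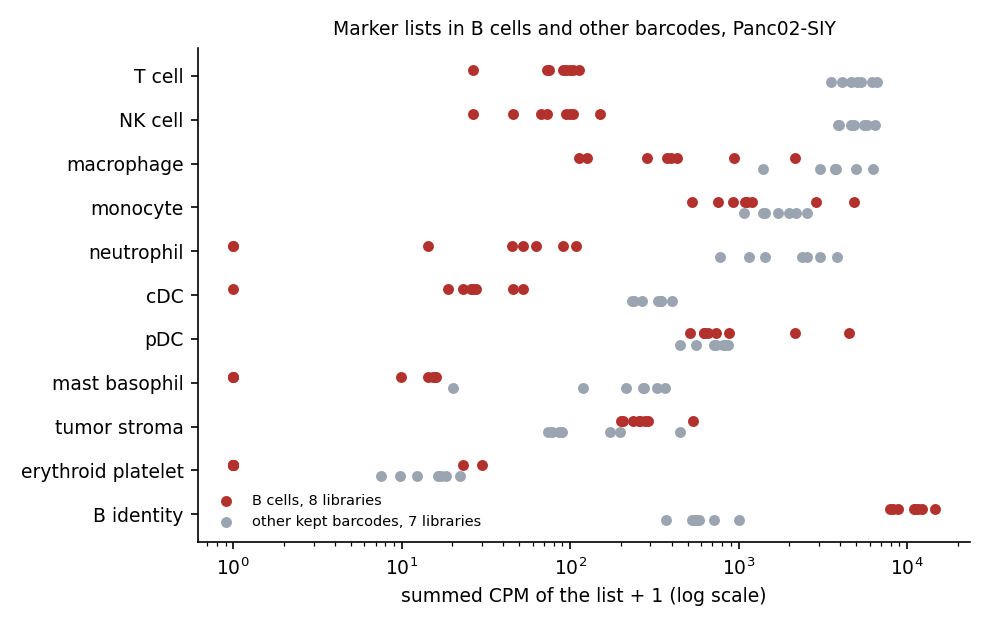
Summed CPM plus 1 of each marker list (log axis) in B cells of the 8 Panc02-SIY libraries (red points, 1 per library) and in the other kept barcodes of the 7 libraries with 5 or more B cells (grey points). The B identity list is the one that lies far to the right in B cells, while the T cell list, which includes the Cd3 genes set to 0 by the gate, lies between 25.4 and 112 CPM.

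The libraries differed in how far their barcodes can be told apart, and this bears on every MC38 value. In MC38, 1005 of 1596 distinct barcode sequences (63.0%) occurred in 2 or more libraries, against 63 of 14754 (0.427%) in Panc02-SIY. Only the copy with the most UMIs was kept, which left 1596 of 7360 filtered MC38 barcodes. The 6 MC38 barcodes in the gate were 3 sequences, and 1 of the 3 kept B cells had a copy in another library. None of the 143 Panc02-SIY B cells had a copy. The first MC38 B cell held 30363 UMIs, 436 of them macrophage, neutrophil or NK markers, against 4539 and 5145 UMIs with 8 and 10 such markers in the others. It also held 86 Cdkn1a UMIs.

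B cells averaged a larger share of kept barcodes in Panc02-SIY than in MC38 libraries, but the MC38 libraries were small. In untreated MC38 tumors 0 of 810 barcodes were B cells, which allows a share of up to 0.370% (3 counts). Before poorer copies were left out, 1 barcode of untreated MC38 replicate 3 was in the gate. Its sequence was deeper in an irradiated MC38 library and was kept there. In irradiated MC38 tumors the 4 libraries held 0, 0, 1 and 2 B cells, or 0.248% ± 0.290 (SD, n = 4). In untreated Panc02-SIY tumors the shares were 1.64%, 0.240%, 1.25% and 0.286%, with a mean of 0.853% ± 0.699 (SD, n = 4). In irradiated Panc02-SIY tumors they were 2.11%, 1.77%, 1.51% and 0.666%, with a mean of 1.51% ± 0.616 (SD, n = 4). The listed shares of the tumor lines did not overlap in either state, and both differences gave p = 0.0286 (exact two-sided permutation test, the smallest p that 4 against 4 allows, adjusted p = 0.0714 over 5 tests). The threshold was an adjusted p of 0.1. The test takes the shares as listed, while a count of 0 in a single untreated MC38 library of 125 to 305 barcodes allows 0.984 to 2.40% (3 counts), above the 0.240% and 0.286% of 2 untreated Panc02-SIY libraries. At this depth the untreated lines cannot be shown not to overlap, and the irradiated MC38 libraries with no B cell, of 75 and 121 barcodes, allow 4% and 2.48%. Counted among B and T cells alone, a denominator added after the data were seen, the irradiated tumors stood at 2.00% ± 2.37 in MC38 and 3.61% ± 1.79 in Panc02-SIY (n = 4 each, exact permutation p = 0.257), and the untreated tumors at 0 and 1.55%, without overlap (exact permutation p = 0.0286, adjusted p = 0.143). MC38 libraries held 143 T cells in all, and their barcodes were deeper (a median of 21677 UMIs, against 6380 in Panc02-SIY). The tumor line cannot be told apart from any technical difference between these sets of libraries.

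**Figure D2:**
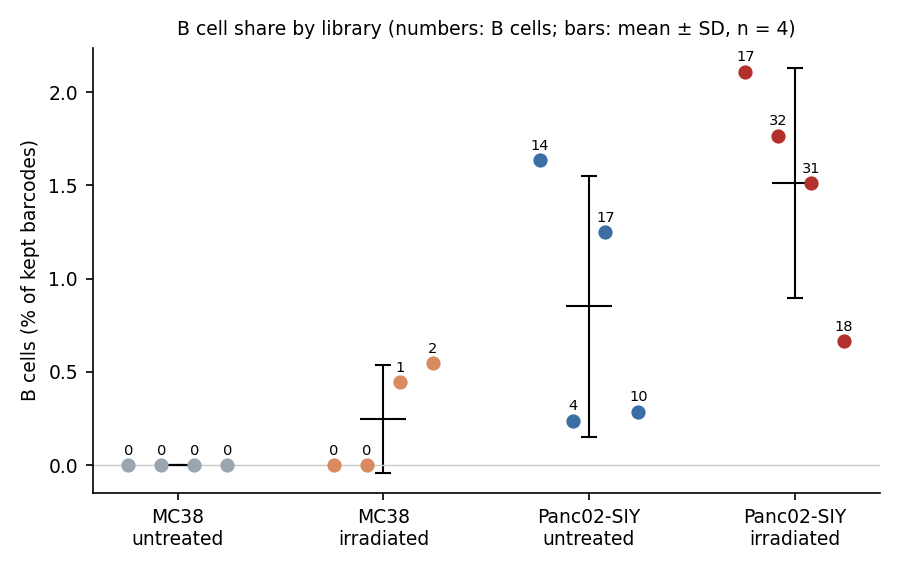
B cells as a percentage of kept barcodes in each of 16 libraries, with the number of B cells above each point and the mean ± SD (n = 4) in black. The 4 untreated MC38 libraries are at 0, and every Panc02-SIY point lies above the MC38 libraries of the same treatment.

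The B cell share did not differ between irradiated and untreated tumors beyond the spread between libraries. The irradiated Panc02-SIY mean was 0.661 percentage points above the untreated mean, but 0.666% in 1 irradiated library lay below 2 of the untreated libraries (exact permutation p = 0.2, adjusted p = 0.333). In MC38 the difference was 0.248 points (exact permutation p = 0.429, adjusted p = 0.473). The change in MC38 minus that in Panc02-SIY was -0.413 points (exact permutation p = 0.473).

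Heavy chain RNA placed most B cells in the unswitched, IgM and IgD state. Ighm, at chr12:113418558-113422730, was found in 141 of 146 B cells (96.6%), and Ighd, at chr12:113406604-113416324, in 122 (83.6%, exact Clopper-Pearson 95% interval 76.5 to 89.2%). In Panc02-SIY T cells, which should lack both, the shares were 27.0% for Ighm and 1.13% for Ighd, at a median of 7435 UMIs against 3464 in B cells. In the 143 MC38 T cells, from libraries with 3 B cells in all, Ighm was found in 35.0%. The source of Ighm UMIs in T cells was not tested. Ighd was found in 11 of 14, 15 of 17 and 5 of 10 B cells of the 3 untreated Panc02-SIY libraries with 5 or more B cells. It was found in 88.2%, 93.8%, 83.9% and 72.2% of B cells in the 4 irradiated libraries, overlapping the untreated range (exact permutation p = 0.457, adjusted p = 0.952). Class-switched heavy chains made up at least 0.5 of the heavy chain UMIs in 6 B cells, and 4 of these were plasma gene cells. Ighe was at 0 in every B cell. Tnfrsf17, the APRIL receptor of plasma cells, was at 0 in the B cells of the same 7 libraries.

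Plasma gene cells, with 3 or more UMIs each of Jchain (the joining chain of secreted antibody) and Xbp1 (a secretory transcription factor), were 4 of the 146 B cells. They held 83.0% of all immunoglobulin constant region UMIs of the B cells and 99.7% of the switched ones. Immunoglobulin constant regions were 44.3 to 55.0% of their UMIs, against 0.409 to 3.97% in the other B cells. The plasma gene cell of untreated replicate 4 had 4630 Ighg1 UMIs and 8182 Igkc UMIs. In irradiated replicate 3, 2 cells had 3302 and 2368 Ighg2b UMIs, and 1 cell had 3749 Ighg2c UMIs. None of the 4 had a UMI of Ighm, Ighd, Pax5 or Ccr7. Between 1 and 3 cells per library held most of its immunoglobulin RNA: normalized Igkc was 148608 CPM in untreated replicate 4 and 154684 CPM in irradiated replicate 3, and between 4362 and 6185 CPM in the other 5 libraries. Jchain was at 0 in every other B cell. The means over libraries for Ighg1 (8387 ± 22189 CPM) and Ighg2b (6040 ± 15772 CPM, n = 7 libraries) come from these cells, and Ighg3 and Igha averaged 21.8 and 31.8 CPM.

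A minority of B cells carried mainly lambda light chain RNA, and most cells held RNA of both chains, as the plot of Igkc against lambda UMIs shows. Of 145 B cells with 5 or more light chain UMIs, 10 were lambda (lambda at least 0.8 of the light chain UMIs), 58 were kappa and 77 held both by the same limits. The lambda share was 6.90% (exact Clopper-Pearson 95% interval 3.36 to 12.3%). Igkc, at chr6:70726435-70726966, was at 0 in 8 of the 10 lambda cells. The limits themselves require Igkc in kappa and mixed cells. The median lambda cell had 12.5 Iglc2, 3.5 Iglc1 and 2.5 Iglc3 UMIs. The 77 mixed cells had a median of 16 Igkc UMIs and 4 Iglc2 UMIs, against 20 and 1 in kappa cells. In Panc02-SIY T cells Igkc was found in 10.2% and Iglc2 in 0.181% of cells, so that the lambda genes were at lower background. Cells that held both chains by these limits were 11 of 14, 11 of 17 and 5 of 10 B cells of the untreated libraries and 29.4%, 56.3%, 33.3% and 61.1% of those in the irradiated ones (exact permutation p = 0.229, adjusted p = 0.952).

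**Figure D3:**
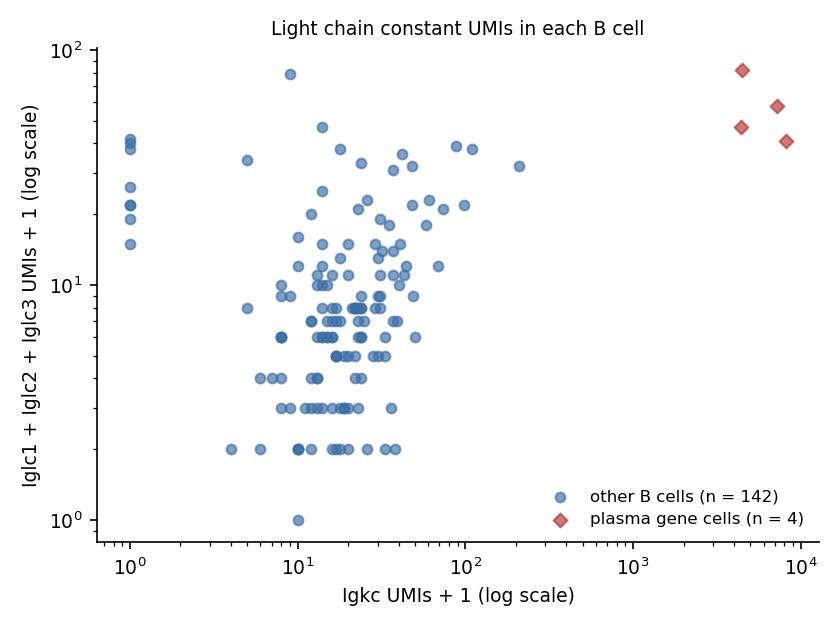
Igkc UMIs plus 1 against summed Iglc1, Iglc2 and Iglc3 UMIs plus 1 in each of 146 B cells, both on log axes. The 8 lambda cells without Igkc stand at the left edge, and the 4 plasma gene cells (red) stand at the right with 4404 to 8182 Igkc UMIs each.

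B cells with and without Ighd differed in other genes, described here over cells of the Panc02-SIY libraries and without a test because the split uses the same cells. Plasma gene cells were left out, which left 119 cells with and 20 without Ighd. The cells without Ighd were deeper, with a median of 5271 against 3336 UMIs. Fcer2a (CD23), a marker of follicular B cells, was found in 63.0% of cells with Ighd and 10.0% of those without. Cr2 (CD21), the complement receptor, was found in 37.0% and 10.0%. Foxp1 stood at 1493 and 786 CPM and Klf2, a factor of quiescent recirculating lymphocytes, at 1436 and 922 CPM. In the other direction, Plac8 stood at 600 CPM with and 1651 CPM without Ighd, and Bhlhe41, a factor of B-1 cells, was found in 7.56% and 35.0% of cells. Cd80, a costimulatory ligand of memory B cells, was found in 0.840% and 20.0%, and Apoe, which also leads the macrophage list, stood at 171 and 561 CPM. Of the cells without Ighd 7 of 20 held 3 or more macrophage, neutrophil or NK marker UMIs, with 48 in 1 cell, against 20 of 119 with Ighd, and the part of these in the Apoe values was not tested. Other genes of the same kinds went the other way. Dtx1 was found in 14.3% of cells with Ighd and in 0 of the 20 without, Cd1d1 in 7.56% and 0 of 20, and S1pr1 in 62.2% and 75.0%. Cd5 was at 4 UMIs and 0. Ighm stood at 3923 and 5803 CPM, so that most cells without Ighd still carried IgM RNA.

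The B cells carried recirculation and activation genes together. Ccr7, the receptor for lymph node entry, was found in 106 of 146 B cells (72.6%) and in 6.23% of Panc02-SIY T cells. Cd69, an early activation antigen that opposes exit from tissue, was found in 80.1% of B cells and 52.2% of T cells, and Cd83 in 50.7% and 5.31%. None of the 15 shares of B cells compared between untreated and irradiated Panc02-SIY libraries passed (adjusted p of 0.952 or more, exact permutation tests of 3 against 4 libraries, which cannot go below p = 0.0571).

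No gene passed the threshold between B cells of irradiated and untreated Panc02-SIY tumors. edgeR's quasi-likelihood test on summed UMIs of 3 untreated and 4 irradiated libraries with 5 or more B cells called 0 of 4044 genes at adjusted p below 0.1 and a fold above 1.3 (0% in each direction), with 296 genes (7.32%) at an unadjusted p below 0.05. In simulated counts of these libraries the same fit found few 2-fold and most 4-fold changes. DESeq2 on the same counts called 2 genes higher (0.995%) and 22 lower (10.9%), shares of the 201 genes to which it gave an adjusted p, since 3843 were left without one. The libraries of the 2 groups did not overlap in 160 genes that were higher (3.96%) and 173 that were lower (4.28%) after radiation, on the scale of TMM-normalized CPM. The libraries held between 66621 and 135653 B cell UMIs each. MC38 B cells were too few for any gene fit, so that the tumor lines and the interaction could not be compared.

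Among the genes with the smallest p were several of the ribosome, each lower after radiation, and the genes named from here on outside the lists were chosen after their values were seen. Rpl32, a protein of the large subunit, stood at 3764, 3792 and 4549 normalized CPM in untreated libraries and at 2524, 2764, 1823 and 2710 in irradiated ones. The groups did not overlap, and the log2 ratio of irradiated to untreated was -0.72 ± 0.16 (SE; edgeR, adjusted p = 0.127). For Rps7, of the small subunit, the estimate was -0.72 ± 0.16 (edgeR adjusted p = 0.127), and for Rps2 it was -0.69 ± 0.16 (edgeR adjusted p = 0.131). At a minimum count of 10 edgeR called Rpl32, Rps7 and Rps2 lower. With the replicate number as a block it called Rpl32 and Rps7 lower. Of 81 ribosomal protein genes tested, a set chosen after its values were seen, 79 had a negative log2 fold change. In 43 of them the groups did not overlap, each lower after radiation. Over all 4044 genes tested, 2121 had a positive log2 fold change and 4.28% were lower without overlap. The median of the ribosomal protein genes was -0.38, against 0.03 over all genes tested. In DESeq2, 20 of the 22 genes called lower were ribosomal protein genes, which were 76 of the 201 genes with an adjusted p there (37.8%). Many of these genes have processed pseudogenes that can share reads.

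Ribosomal protein genes were 24.6%, 23.6%, 25.8% and 20.5% of B cell UMIs in the 4 untreated Panc02-SIY libraries, and 22.1%, 21.3%, 15.2% and 21.3% in the irradiated ones. The lowest value of each group came from the library with plasma gene cells. Without those 4 cells the untreated values were 24.6%, 23.6%, 25.8% and 26.4% and the irradiated values 22.1%, 21.3%, 20.3% and 21.3%, and the groups no longer overlapped. In T cells of the same libraries the share was 23.1% ± 0.839 and 21.4% ± 1.14 (SD, n = 4 libraries each), with a smaller distance between the means. In edgeR without the plasma gene cells, an alternative added after the data were seen, 2 of 4069 genes were higher (0.0492%) and 17 lower (0.418%), 12 of the lower being ribosomal protein genes. In the fit of all B cells such genes were 81 of 4044 tested. With library size alone in place of TMM, 0 genes were called. Leaving out untreated replicate 4, or irradiated replicate 1 or 2, as well gave 0 genes, and leaving out irradiated replicate 3 gave 1 lower. Leaving out untreated replicate 1 gave 3 higher and 15 lower, untreated replicate 3 gave 4 and 27, and irradiated replicate 4 gave 4 and 12. Adding the untreated library of 4 B cells gave 0. The median depth of B cells was 3907 UMIs in untreated and 3306.5 UMIs in irradiated tumors, and its part in this difference was not tested.

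**Figure D4:**
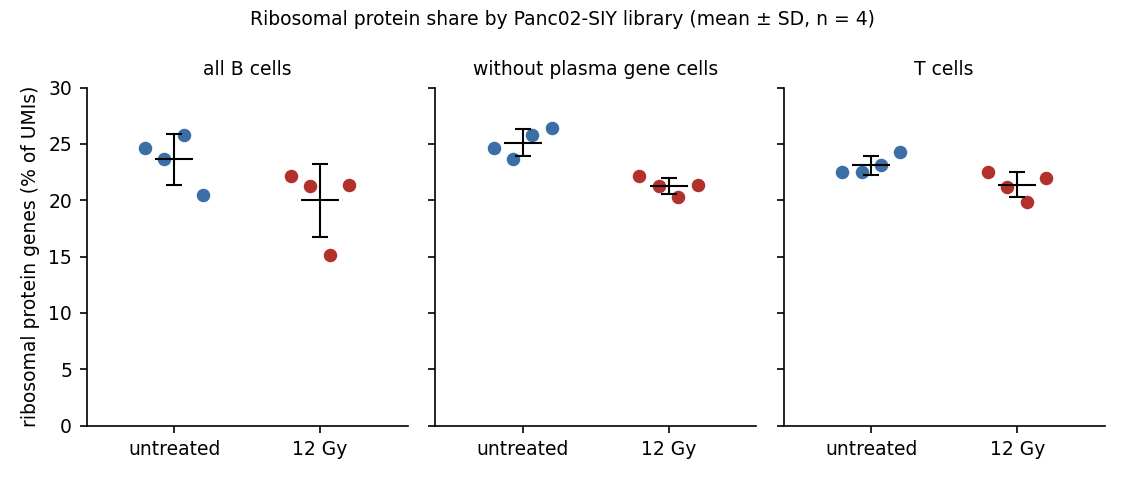
Ribosomal protein genes as a percentage of UMIs by Panc02-SIY library, untreated or 24 h after 12 Gy, in all B cells, B cells without the 4 plasma gene cells, and T cells (points are libraries, black bars the mean ± SD, n = 4 each). The untreated and irradiated points of the middle panel do not overlap.

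Ahr, the aryl hydrocarbon receptor, a ligand-activated transcription factor, was lower in every irradiated library. Its normalized level was 170, 185 and 307 CPM in untreated and 15.3, 103, 28.3 and 74.0 CPM in irradiated B cells, and the log2 ratio was -1.89 ± 0.46 (SE; edgeR, adjusted p = 0.131). The alternatives that called Ahr lower in edgeR included no filter on low counts, the replicate block and leaving out plasma gene cells (adjusted p = 0.0617 in the last). Its log2 fold change was negative in all 27 alternative settings (-2.50 to -0.91). In T cells of the same libraries Ahr averaged 38.1 ± 10.4 and 63.9 ± 11.8 CPM before normalization. The response of B cells minus that of T cells was -2.56 ± 0.53 on the log2 scale (SE, edgeR adjusted p = 0.00304 in a fit with the library as a term, added after the data were seen). That fit called 2 genes higher (0.0187%) and 4 lower (0.0374%) of 10704, with 421 genes at an unadjusted p below 0.05. Rps19 was another, with a difference of -0.83 ± 0.16 (SE, edgeR adjusted p = 0.000903). Gadd45a, a stress-induced growth arrest gene, had 0, 1 and 1 UMIs in untreated and 4, 8, 11 and 5 UMIs in irradiated B cells. Its groups did not overlap, and its log2 fold change was 2.85 ± 0.82 (SE, edgeR adjusted p = 0.278). In all 26 settings with a value Gadd45a was higher (log2 fold change 2.22 to 3.75), and it passed the threshold in an alternative setting. Esf1 and Jun were the 2 genes called higher without plasma gene cells. In that fit Jun, an immediate early transcription factor, averaged 106 ± 3.18 normalized CPM in 3 untreated and 285 ± 96.1 CPM in 4 irradiated libraries (edgeR adjusted p = 0.0973), while with those cells untreated replicate 4 alone stood at 1499 normalized CPM.

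The p53 targets that marked irradiated T cells were not detectably higher in B cells. Of 39 listed p53 target genes, 14 were tested in B cells and none passed, with a median log2 fold change of 0.12. Gadd45a, higher without overlap in irradiated B cells as given above, was not on that list. In T cells of the same 7 libraries 20 of 38 were called higher and none lower, beside 1.06% higher and 1.28% lower of 13043 genes tested there. With T cells thinned to the B cells' totals, 4 of the 15 targets tested were called higher (Bax, Ccng1, Cdkn1a and Trp53inp1) and none lower, beside 0.314% higher and 0.404% lower of 4459 genes. Cdkn1a (p21), the cell cycle inhibitor, at chr17:29090976-29100727, had 2, 0 and 1 UMIs in untreated B cells and 0, 1, 2 and 1 UMIs in irradiated B cells. These were 12.5 ± 12.4 CPM (SD, n = 3) and 9.52 ± 6.88 CPM (SD, n = 4). In T cells Cdkn1a stood at 25.7 ± 5.32 and 286 ± 39.2 CPM (log2 fold change 3.35 ± 0.19, SE, edgeR adjusted p = 1.28e-05). With T cells thinned to the B cells' UMI total in each library, 97 Cdkn1a UMIs remained in the irradiated T cells, against 4 in the B cells (exact Poisson 95% interval 1.09 to 10.2, counting error only). Phlda3, an inhibitor of Akt signalling, had 0 UMIs in irradiated B cells, where at most 45.0 CPM (3 UMIs) could hide in a library, and 35.9 to 57.0 CPM in irradiated T cells. Ccng1 (cyclin G1) stood at 46.2 ± 30.9 and 44.4 ± 36.5 CPM in untreated and irradiated B cells, and at 63.3 ± 7.73 and 301 ± 16.6 CPM in T cells. Bax, a pore-forming death effector, stood at 123 ± 66.3 and 90.4 ± 55.0 CPM in B cells and at 124 ± 11.6 and 308 ± 24.6 CPM in T cells.

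The difference between the responses was -3.67 ± 1.28 for Cdkn1a, -2.07 ± 0.63 for Ccng1 and -1.55 ± 0.44 for Bax (B cells minus T cells, log2, SE). In the other direction stood Gadd45a, at 2.46 ± 1.12 (edgeR adjusted p = 1, unadjusted p = 0.0278). For Zmat3 the difference was -0.40 ± 1.94. Of the first 3 genes none passed over all genes (edgeR adjusted p = 0.872, 0.425 and 0.310, unadjusted p = 0.00424, 0.00110 and 0.000493). Mdm2, the ubiquitin ligase that restrains p53, differed little, at -0.06 ± 0.62, and in B cells its log2 fold change was 0.66 ± 0.57 (edgeR adjusted p = 0.908). Before normalization Mdm2 averaged 47.4 ± 21.1 CPM in untreated and 77.8 ± 26.4 CPM in irradiated B cells. In T cells it averaged 54.8 ± 2.72 and 98.9 ± 7.70 CPM. By UMIs, which in a 3' assay do not scale with transcript length, the leading p53 targets of B cells were Btg2 (349 ± 86.5 CPM), Trp53inp1 (177 ± 128 CPM), Bax, Plk2 (82.6 ± 25.9 CPM) and Rrm2b (68.7 ± 31.7 CPM, SD, n = 7 libraries). Trp53inp1 stood at 317 CPM in untreated replicate 4 and 383 CPM in irradiated replicate 3, the libraries with plasma gene cells. In the rest of the 7 libraries it stood between 37.3 and 186 CPM. The comparison of thinned T cells is at equal UMI totals, since T cells had a median of 7435 UMIs. The 7 libraries held 272 to 1810 T cells and 10 to 32 B cells each. The common dispersion, the fit's estimate of spread between libraries, was 0.022 in thinned T cells and 0.069 in B cells. The part of cell number in the calls was not tested.

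**Figure D5:**
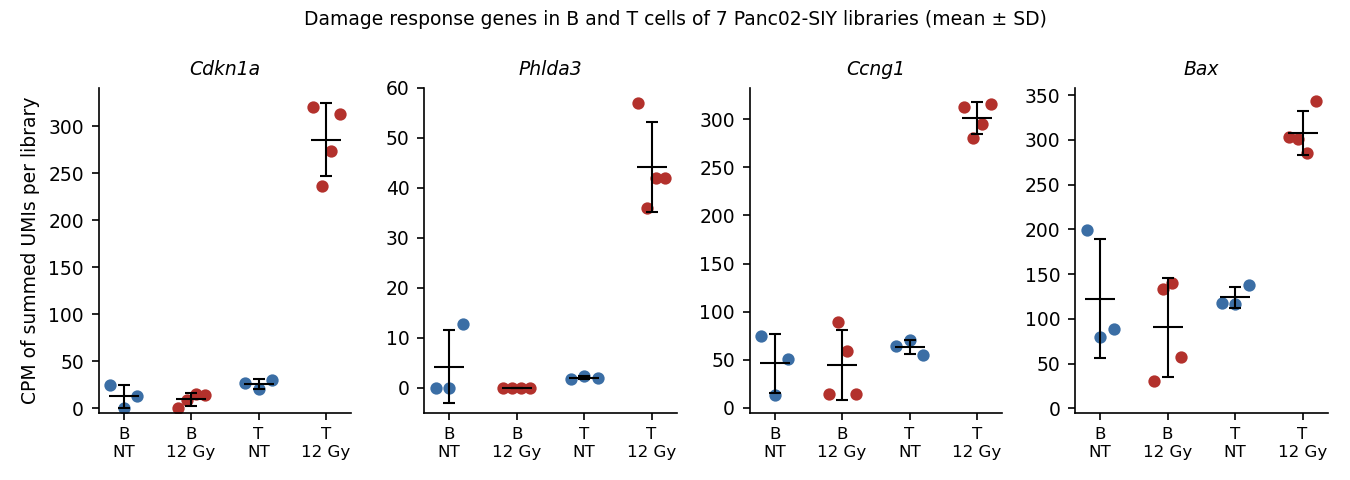
CPM of Cdkn1a, Phlda3, Ccng1 and Bax in B cells and T cells of 3 untreated (NT) and 4 irradiated (12 Gy) Panc02-SIY libraries, with points for libraries and black bars for the mean ± SD. Irradiated T cells lie above the other 3 columns for each gene, with Cdkn1a at 286 ± 39.2 CPM against 9.52 ± 6.88 CPM in irradiated B cells.

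Other gene groups of B cells are given by their counts beside the 3.68% of all tested genes that were higher and the 3.64% that were lower at an unadjusted p below 0.05, and none of their genes was called by edgeR when all B cells, the filter and the model above were used. In the follicular list 4 of 10 genes were higher at that level and none lower, with a median log2 fold change of 0.42. Ccr7 stood at 575, 385 and 477 normalized CPM in untreated and at 765, 714, 690 and 814 CPM in irradiated libraries (log2 fold change 0.63 ± 0.25, SE, edgeR adjusted p = 0.469). Klf2 averaged 878 ± 368 and 1659 ± 694 normalized CPM (edgeR adjusted p = 0.657), and was called higher by DESeq2 and, in edgeR, with no filter on low counts and with the replicate block. Cd55, a complement regulator of the same list, was called higher by DESeq2 without plasma gene cells. Before normalization the groups overlapped for both genes, with 547 CPM of Ccr7 in 1 untreated and 538 CPM in 1 irradiated library, and 1168 and 980 CPM of Klf2. In the marginal zone and B-1 list 3 of the 6 genes tested were lower, with a median of -0.57. Bhlhe41 stood at 196, 85.5 and 136 normalized CPM in untreated and at 0, 28.2, 37.8 and 74.0 CPM in irradiated libraries (log2 fold change -1.96 ± 0.58, SE, edgeR adjusted p = 0.284), and was called lower where Cd79b and Ms4a1 were both required (edgeR adjusted p = 0.0512). Without plasma gene cells edgeR called Plac8 lower (log2 fold change -0.93 ± 0.23, SE, adjusted p = 0.0711), a gene that the monocyte list also holds, and Mzb1 (-1.12 ± 0.28, adjusted p = 0.0692), which the plasma list also holds. These follicular and B-1 genes are among those that differed between cells with and without Ighd, and the part of that cell mix in these values was not tested.

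In the list of activation and immediate early genes 5 of 29 were higher and 1 lower, with a median of 0.19. For Jun, of this list, the log2 ratio was -0.77 ± 1.07 in all B cells (SE; edgeR, adjusted p = 0.975) and 1.44 ± 0.39 without plasma gene cells, where it was called higher. Its more abundant genes were Btg1 (2147 ± 423 CPM), Jund (1674 ± 262 CPM), Junb (1555 ± 495 CPM), Fos (1209 ± 317 CPM) and Cd69 (677 ± 228 CPM, SD, n = 7 libraries). The log2 ratio was 0.51 ± 0.20 for Fos and 0.54 ± 0.24 for Cd69 (edgeR adjusted p = 0.469 and 0.601). In the interferon list 1 of 19 genes was higher, Irf9, a subunit of the interferon-activated factor ISGF3 (log2 fold change 1.16 ± 0.47, SE, edgeR adjusted p = 0.486), and the median was 0.04. Ly6e (1802 ± 181 CPM), Ly6a (817 ± 388 CPM), Ifi27l2a (532 ± 324 CPM), and Ifi203 (397 ± 104 CPM) were among its more abundant genes.

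Receptors for the survival factor BAFF and the BCL2 family held no called gene. The BAFF receptor Tnfrsf13c stood at 141 ± 23.8 normalized CPM in untreated and 232 ± 59.4 in irradiated B cells (log2 fold change 0.72 ± 0.37, SE, edgeR adjusted p = 0.703). Its groups did not overlap on that scale, but did before normalization (149 CPM in 1 untreated and 140 CPM in 1 irradiated library). TACI (Tnfrsf13b) stood at 126 ± 39.1 and 183 ± 46.9 normalized CPM. In the BCL2 family 2 of 6 genes were lower at an unadjusted p below 0.05, with a median of -0.21. These were Bcl2a1b, a survival member (log2 fold change -1.27 ± 0.50, SE, edgeR adjusted p = 0.470), and Bcl2l11 (BIM), a death activator (-0.96 ± 0.45, SE, edgeR adjusted p = 0.655). Mcl1 stood at 637 ± 113 and 653 ± 61.6 normalized CPM and Bcl2 at 150 ± 48.2 and 142 ± 21.7 CPM. In the class II list 1 of 12 genes was lower, H2-Eb1, an antigen-presenting chain (-0.53 ± 0.18, SE, edgeR adjusted p = 0.387), which DESeq2 called lower without plasma gene cells (adjusted p = 0.0687). In the remaining lists no gene was called by edgeR in all B cells, and Igha was called lower with no filter on low counts. At an unadjusted p below 0.05, 2 of 25 identity genes, 2 of 19 trafficking genes and 1 of 18 activating receptor signalling genes were higher, and 1 of those 18 was lower. None of 10 inhibitory signalling, 12 class I, 4 cell cycle, 7 DNA repair, 6 plasma cell, 4 cytokine, 2 transitional and 1 germinal center genes tested reached that level. The gate genes themselves stood, in normalized CPM, at 2451 ± 273 and 2694 ± 554 for Cd79a, 1277 ± 35.0 and 1263 ± 156 for Cd79b, and 1162 ± 293 and 1524 ± 422 for Ms4a1.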

How the data were processed

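The deposited files hold UMI counts per gene and barcode, made by the authors with Cell Ranger 3.1.0 and bcl2fastq 2.20.0 on mm10 per the labels (10x 3' v3.0 kit). They held 187735117 UMIs in 28678 barcodes and 31053 genes. Barcodes with 500 or more genes and at most 10% mitochondrial UMIs were kept (22305), and a sequence found in several libraries of a line was kept once, where deepest (16350). No doublet caller was run, and a whole-series table was not used. Counts were summed over B cells per library and tested with edgeR 4.0.16 (R 4.3.3, TMM, filterByExpr at min.count 3 and min.total.count 15), with DESeq2 1.42.0 as an alternative, and shares with exact permutation tests (scipy 1.17.1), with Benjamini-Hochberg adjustment. Intervals cover counting error only. The fit was tested on simulated data. Genes named were the called ones, gate, immunoglobulin and BAFF receptor genes, and the most abundant of fixed lists. Others were chosen after their values were seen. Some genes are not reported here. B cells and all lists were chosen with earlier results of these data known. Only 7 libraries had 5 or more B cells, so the fit of all libraries and of the 2 groups alone coincide.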

Additional observations from a re-analysis of the deposited data

Results flagged for a closer look

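An outlying library was looked for in 44 groups of 4, and 6 had one. In 2 of the 6, the shares of plasma gene and of switched cells, 1 library was above 0 and 3 were at 0, so any value would have stood apart, and both rest on the same cells. Of the other 42 groups 4 had one, where chance gives one in about 1 of 20, and most of these groups hold the same libraries. Among irradiated Panc02-SIY libraries, replicate 3 was the only one with plasma gene cells and with switched B cells (9.68% of its B cells in both cases, against 0), and it was low in ribosomal protein share (15.2%, against a median of 21.3% in the others) and in Rps7 (1568 normalized CPM, against 2177). Replicate 2 was high in Ms4a1 (2153 normalized CPM, against 1331), 1 of the 4 above, but the gate used this gene, so its value is not read as a result. Replicate 1 was high in Klf2 (2692 normalized CPM, against 1259).

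Outside the gate, 5 kept barcodes of Panc02-SIY tumors had plasma genes, 4 from untreated tumors and 1 irradiated, and none came from MC38. A Cd3 UMI alone kept out 3 of them, 1 had Cd3 UMIs and no Cd79a, and 1 lacked Cd79b and Ms4a1.

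The fit of B cell against T cell responses called Ahr (-2.56 on the log2 scale, edgeR adjusted p = 0.00304), Rps19 (-0.83, edgeR adjusted p = 0.000903) and Ebf1 (2.78, edgeR adjusted p = 0.00304). Ebf1 entered that fit through the B cells, with 1039 UMIs. T cells held 35 Ebf1 UMIs in all, 31 of them in untreated libraries, so its value rests on those few UMIs.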

How the results depend on the processing

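The higher B cell share of Panc02-SIY kept its direction in every alternative run, but its adjusted p depended on both tumor comparisons reaching the smallest exact p. For untreated tumors (MC38 minus Panc02-SIY) the adjusted p rose above 0.1 without shared barcodes (-0.860 points), with no cell filter (-0.643), with Cd79a of at least 1 (-0.789), when thinned to 1000 UMIs (-0.604) and among B and T cells (-1.55). For irradiated tumors it did so in the same settings (-1.20, -1.09, -1.36, -1.05 and -1.62). Leaving out 1 library gave -1.06 to -0.592 for untreated and -1.55 to -1.07 for irradiated tumors, where 3 against 4 libraries cannot go below an exact p of 0.0571.

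The replicate numbers are shared between groups, but deviations of same-numbered Panc02-SIY libraries correlated at 0.0342, -0.0848 and 0.0371 across genes, so the numbers were not taken to pair them. With the replicate block the share differences were -0.853 and -1.27 (adjusted p = 0.208, smallest exact p 0.125), genes called were 1 higher and 4 lower, and the difference in the share of B cells with Fcer2a became 0.172 points.

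Counts of called genes (higher and lower) were 2 and 3 with no filter, 0 and 4 at a minimum count of 10, 4 and 21 with Cd79b and Ms4a1 both required, 2 and 22 in DESeq2, 2 and 17 without plasma gene cells (the same with RLE, 0 and 0 with library size alone), and 4 and 34 in DESeq2 without them. Leaving out 1 library gave 0 higher and 0 to 1 lower (Park7, without irradiated replicate 3). When thinned to 1000 UMIs, the difference between irradiated and untreated Panc02-SIY B cells changed sign for Ighd (-3.18 points), Fcer2a (14.1) and Cdkn1a (1.59). Leaving out 1 library gave -0.767 to 8.25 for lambda, -6.99 to 8.72 for Fcer2a, -0.655 to 13.4 for Cr2, -11.0 to 9.33 for Cd83, -12.6 to 2.42 for switched, -3.33 to 2.42 for plasma genes and -4.79 to 0.212 for Cdkn1a. The cause of these changes was not tested. At this depth 4044 of 31053 genes had enough UMIs to be tested.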
